A study of Fundulus heteroclitus with 15 samples.

Results

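The comparison described here is that of 50 ng/L 17α-ethinylestradiol (EE2) with control in mummichog liver. The mummichog (Fundulus heteroclitus) is a killifish of salt marshes and estuaries. EE2 is the synthetic estrogen of contraceptive pills and reaches waterways through sewage. Members were chosen by their treatment label: 5 arrays labelled 50 ng/L EE2 and 5 labelled none, together 10 of the 15 arrays of the study. The 5 arrays at 250 ng/L enter only where the lower concentration is set beside the higher. Fish of all groups were adult females, the EE2 groups were exposed through the water for 14 days, and each array carried Cy3-labelled total RNA of liver. The labels call the arrays biological replicates without saying whether an array holds RNA of 1 fish or of several, so errors are spreads among arrays. The comparison asks which liver transcripts respond at the lower of the study's concentrations.

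Liver is the organ in which female fish make the yolk and much of the egg envelope. Estrogen from the ovary binds estrogen receptors in hepatocytes, and the receptors turn on the genes for vitellogenins, the lipid-rich yolk precursors, and for zona pellucida (ZP) proteins, the glycoproteins of the egg envelope, which in fish are also called choriogenins. These proteins are secreted into the blood and taken up or assembled by the growing oocytes, and synthetic estrogens such as EE2 act through the same receptors.

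The array held 7152 probes, each spotted in duplicate. A level below is the log2 signal of a probe minus the 75th percentile of its own array, so that a level of 0 equals that percentile, and a shift is the mean level at 50 ng/L minus the mean level in controls. Tests took in the 6005 probes whose signal was flagged well above background on 5 or more of the 10 arrays, and 3807 of these carried 2888 different gene names. A probe is called where its limma p, adjusted over the 6005 probes, is under 0.05. The 75th percentile itself was 3586, 1020, 542, 869 and 731 intensity units on 50 ng/L replicates 1 to 5 and 1382, 1459, 2473, 1741 and 2470 on control replicates 1 to 5. The 50 ng/L arrays other than replicate 1 were thus dimmer than every control array. Geometric means were 1047 and 1846 (exact two-sided permutation p = 0.151, where 0.00794 is the smallest this design allows). Leaving out 1 array at a time gave exact permutation p from 0.0159, without 50 ng/L replicate 1 and the smallest that 4 against 5 arrays allow, to 0.302. The share of probes well above background averaged 82.2% ± 2.87 at 50 ng/L and 84.0% ± 2.23 in controls (SD, n = 5 each; exact permutation p = 0.262, and 0.0476 to 0.476 without single arrays, lowest without 50 ng/L replicate 1). The part of brightness in the results below was not tested, although the levels are taken relative to each array's own percentile. Of the labelled tissue's markers, 14 of 14 liver parenchyma genes (apolipoproteins, fibrinogens, transferrin and others) were well above background on all 10 arrays, as were 5370 of the 6005 probes tested, so this count alone does not identify the tissue.

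At 50 ng/L, 22 of the 6005 probes were called higher than in control (0.366%) and 0 were called lower (0%). They carry the names of 13 genes, beside 1 probe named for a hypothetical protein and 3 without a name. The called probes of Vitellogenin A2, Vitellogenin and Vitellogenin I rose by 3.08 to 6.33 on the log2 scale, and that of WAP four-disulfide core domain protein 2 (WAP2) by 3.67. Serotransferrin I, zona pellucida sperm-binding proteins 4 and 3 (ZP4 and ZP3) and a group of probes most of whose names come from distant organisms rose by 1.64 to 2.98. In all 22 called probes the lowest 50 ng/L array lay above the highest control array, which was so for 46 of all 6005 probes (0.766%), while 21 (0.35%) had every 50 ng/L array below every control array. The median shift of the 22 was 2.86, against -0.01 over all probes, and 19 of them were well above background on all 10 arrays. The 22 were picked for a small p, which itself favours separated groups and large shifts. The lack of overlap and the median shift thus add no support to the calls. Without adjustment, limma p was under 0.05 for 136 higher and 110 lower probes, 246 of the 6005. Chance alone would give this for a share of 0.05 of the probes, which is more than these 246. The counts without adjustment are thus not read as further responses.

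**Figure D1:**
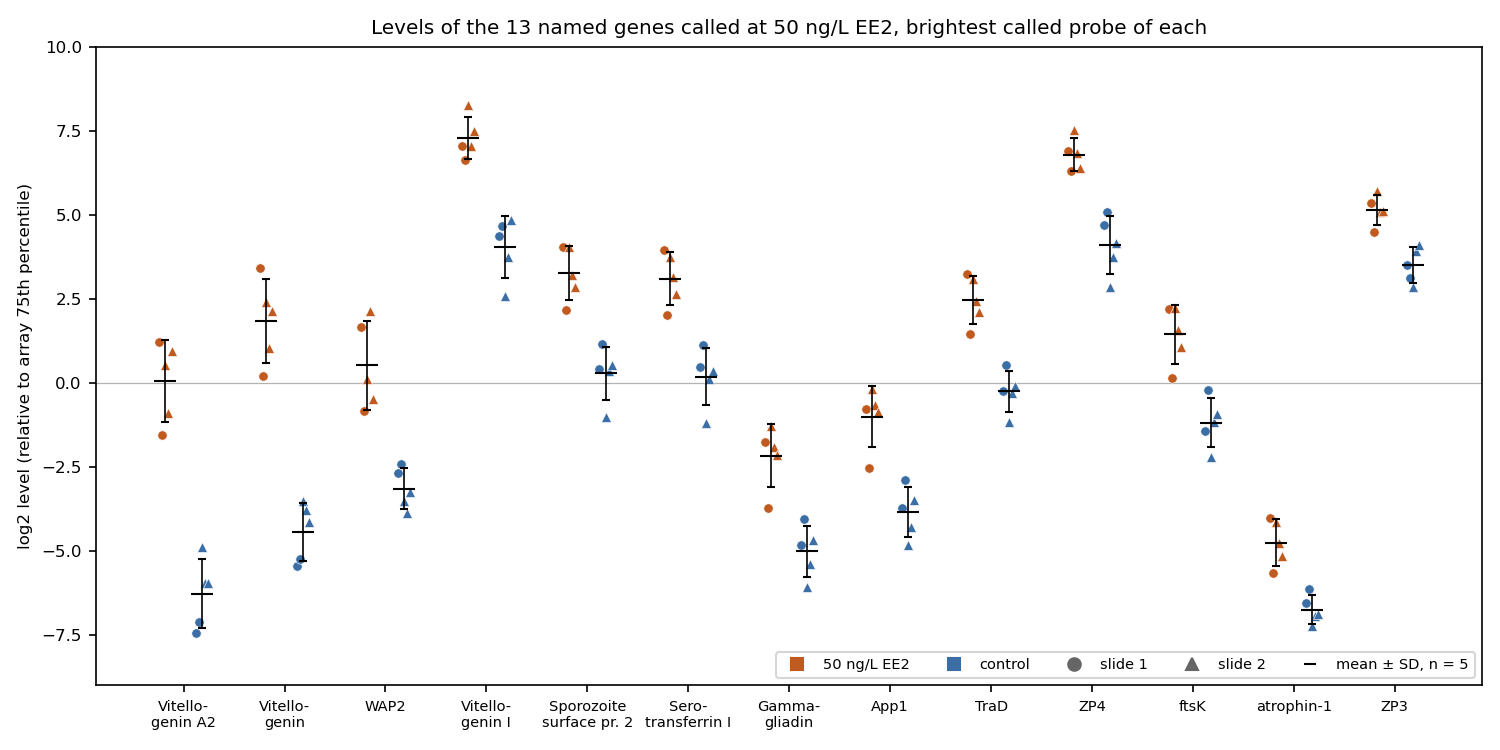
Log2 level (relative to the array's 75th percentile, y axis) of the brightest called probe of each of the 13 named genes, in order of shift. Orange points are the 5 arrays at 50 ng/L EE2 and blue points the 5 control arrays, circles on slide 1 and triangles on slide 2, with mean ± SD as bars. The groups do not overlap in any of the 13, and the gap is widest for Vitellogenin A2 and the probe named Vitellogenin.

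Vitellogenins come from several genes in fish, and the array's design uses 4 vitellogenin names. Whether these stand for 4 separate mummichog genes is not known, because no sequence was used here. Vitellogenin A2 had levels of 1.22, -1.55, 0.53, -0.91 and 0.96 on the 50 ng/L arrays, against -7.44, -7.13, -4.89, -5.96 and -5.96 on the control arrays. The groups were far apart, and in controls the probe was near the lower limit of the array, well above background on 3 of 5 arrays. Its shift was 6.33 ± 0.62 (SE, n = 5 per group; 80.2-fold; 95% interval of the log2 shift 4.96 to 7.7; limma adjusted p = 0.00122). With another background correction (normexp on the spot and local background signals, with an offset of 50 intensity units added) the shift was 4.38. An added offset by itself shrinks the fold of a dim probe. Its part cannot be told apart here from that of background removal, nor for the other dim probes below.

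The probe named Vitellogenin had levels of 3.40, 0.19, 2.39, 1.05 and 2.14 at 50 ng/L and -5.45, -5.26, -3.52, -3.80 and -4.15 in controls. It was well above background on all 10 arrays, and it rose by 6.27 ± 0.60 (77.2-fold; limma adjusted p = 0.00122), or by 5.32 with the normexp correction. In both of these probes 50 ng/L replicate 2 was the lowest of its group. Their array-to-array patterns were much alike, so whether Vitellogenin A2 and Vitellogenin report separate genes is not known.

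Vitellogenin I was represented by 4 probes, all of them called. On the contig An_u_20261 its levels were 5.46, 3.77, 4.88, 3.41 and 4.6 at 50 ng/L and -2.26, -2.0, -0.70, -1.20 and -1.51 in controls, a shift of 5.96 ± 0.42 (62.1-fold) with the smallest p of the comparison (limma adjusted p = 0.000118). The 3 remaining probes shifted by 3.91, 3.25 and 3.08 (15-fold, 9.54-fold and 8.46-fold). Their names are shared but their contigs differ, and sequences of the contigs were not used here, so whether all 4 report 1 transcript is not known. On the contig AN_v_20346, the brightest of the 4, levels were 7.06, 6.64, 8.27, 7.04 and 7.48 at 50 ng/L and 4.37, 4.66, 2.59, 3.75 and 4.85 in controls.

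Vitellogenin II did not pass. Its 3 probes shifted by 2.89 ± 0.58 (adjusted p = 0.0827), 2.77 ± 0.74 (adjusted p = 0.418) and -0.07 ± 0.20 (adjusted p = 1). For the first of these the levels were -2.21, -1.90, 0.29, -0.98 and -1.91 at 50 ng/L and -4.34, -4.15, -4.50, -5.60 and -2.59 in controls, so that the groups did not overlap although the call was missed. For the second, control replicate 5, at -1.14, lay above 2 of the 5 arrays at 50 ng/L. The first probe was called, at the same shift, when all 15 arrays were fitted together (adjusted p = 0.0217).

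Of the egg envelope proteins, ZP4 and ZP3 were called on part of their probes. ZP4 had 4 probes, of which 3 were called, with shifts of 2.69 to 2.87, and the fourth shifted by 2.31 ± 0.46 (adjusted p = 0.0769). On its brightest probe ZP4 had levels of 6.89, 6.29, 7.52, 6.83 and 6.41 at 50 ng/L and 4.69, 5.07, 2.85, 3.74 and 4.15 in controls, a shift of 2.69 ± 0.40 (6.45-fold; limma adjusted p = 0.0253). The lowest exposed array, replicate 2, lay above the highest control array, also replicate 2. ZP3 was called on 1 of its 3 probes, with levels of 5.36, 4.49, 5.70, 5.08 and 5.13 at 50 ng/L and 3.52, 3.13, 2.86, 3.93 and 4.10 in controls. Its shift was 1.64 ± 0.30 (3.13-fold; limma adjusted p = 0.0485), which lies just inside the threshold, and a neighbouring probe at 1.57 ± 0.30 (adjusted p = 0.0685) lies just outside. The third ZP3 probe was at -0.18 ± 0.21 (adjusted p = 1), with overlapping groups. ZP1, the remaining member of the vitellogenin and egg envelope list, was too dim to test. Of the 6 genes tested in that list, 6 were higher and 5 were called on their brightest probe, against 12 of 2888 among all genes, and the median shift was 3.01 against 0.01 over all genes.

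The estrogen receptors themselves were not called. The brighter probe for estrogen receptor alpha had levels of 1.19, 2.95, 2.46, 2.64 and 2.75 at 50 ng/L and 2.94, 2.31, 1.01, 0.61 and 1.97 in controls, with a shift of 0.63 ± 0.47 (95% interval -0.41 to 1.67; adjusted p = 1). The other alpha probe shifted by 0.69 ± 0.47 (95% interval -0.34 to 1.73; adjusted p = 1). The direction was not the same on the study's 2 slides: with 2 arrays per group on slide 1 the shifts were -0.56 and -0.72, and with 3 per group on slide 2 they were 1.42 and 1.63. Estrogen receptor beta A, a second nuclear receptor for the hormone, had shifts of -0.04 ± 0.20 and -0.10 ± 0.19 on its 2 probes, with 95% intervals of -0.48 to 0.41 and -0.51 to 0.32. Of the 10 tested genes of estrogen receptors and steroid metabolism 0 were called, with a median shift of 0.36. The member with the smallest p was corticosteroid 11-beta-dehydrogenase isozyme 1, which interconverts active and inactive glucocorticoids (0.87 ± 0.43; unadjusted p = 0.0692). It was followed by cytochrome P450 7A1, the rate-limiting enzyme of bile acid synthesis (0.73 ± 0.43), cholestenol delta-isomerase (emopamil-binding protein), an enzyme of cholesterol synthesis that the list took in by its hydroxysteroid name (0.51 ± 0.36), and cytochrome P450 17A1, an enzyme of sex steroid synthesis (0.48 ± 0.34), none of which passed.

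WAP domains occur in small secreted proteins, several of which inhibit proteases. WAP2 was called on 1 of its 3 probes, with levels of 1.66, -0.85, 0.13, 2.14 and -0.47 at 50 ng/L and -2.69, -2.41, -3.51, -3.88 and -3.25 in controls. The shift was 3.67 ± 0.57 (12.7-fold; limma adjusted p = 0.026), with a wider spread at 50 ng/L (SD 1.32) than in controls (SD 0.598). The other WAP2 probes shifted by 2.62 ± 0.88 (adjusted p = 0.91) and 1.36 ± 0.50 (adjusted p = 1). Whey acidic protein shifted by 3.24 ± 0.80 (adjusted p = 0.257) and its relative, WAP four-disulfide core domain protein 3 (here WAP3), by 2.72 ± 0.88 (adjusted p = 0.879). In these last 2 genes, and in the first of the uncalled WAP2 probes, control replicate 2 stood above the remaining controls, at 1.74 against -3.52 to -1.45 for whey acidic protein. Without that array whey acidic protein was called (4.05), but leaving out the highest control raises a shift by construction.

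Serotransferrin I, a plasma carrier of iron, had levels of 3.96, 2.03, 3.75, 3.15 and 2.64 at 50 ng/L and 0.46, 1.14, -1.19, 0.12 and 0.35 in controls. It rose by 2.93 ± 0.47 (7.61-fold; limma adjusted p = 0.026) and was the 1 called member of the 12 tested genes of iron handling, whose median shift was 0.15. Serotransferrin and transferrin, separate names in the same list, were tested as well and were not called. Haptoglobin, which binds free hemoglobin, was at 0.61 ± 0.27 (unadjusted p = 0.0429), hemopexin, a carrier of heme, at -0.33 ± 0.23 and ceruloplasmin, a copper-binding ferroxidase, at -0.18 ± 0.19, and none of these was called.

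A further group of called probes carries names that are known mostly from distant organisms, so that the fish gene behind each is not known from the name; atrophin-1, a human gene name, is described with them. The probe named sporozoite surface protein 2, after a malaria parasite protein, had levels of 4.04, 2.17, 4.03, 3.22 and 2.84 at 50 ng/L and 0.41, 1.14, -1.01, 0.36 and 0.52 in controls, a shift of 2.98 ± 0.45 (7.88-fold). Its array-to-array pattern is nearly that of serotransferrin I above, although the names share nothing. Probes named Gamma-gliadin (from wheat grain), App1 protein, TraD protein, DNA translocase ftsK (both known from bacteria) and atrophin-1 rose by 2.84, 2.84, 2.72, 2.62 and 2.0, with limma adjusted p between 0.0253 and 0.035. Gamma-gliadin and App1 protein had array-to-array patterns that were much alike, so whether these names report separate genes is not known. A probe for a hypothetical 84.0 kDa yeast protein rose by 2.84. With slide as a block, all of these but sporozoite surface protein 2 and TraD were no longer called (adjusted p between 0.052 and 0.0706). Atrophin-1 was well above background on 3 of 5 control arrays and missed the call with the normexp correction (1.16, adjusted p = 0.0827). The 2 other probes of sporozoite surface protein 2 shifted by 2.61 and 2.34, with the same adjusted p of 0.0729.

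Of the 3 called probes without a name, 2 shifted by 2.92 and 2.72. The second of these was well above background on 3 of 5 control arrays. With the normexp correction it shifted by 1.46 and missed the call (limma adjusted p = 0.0611). The remaining 1 was the smallest called shift, 1.5 ± 0.24 (limma adjusted p = 0.026), and had the narrowest groups: -1.0, -0.44, -0.61, -0.83 and -0.97 at 50 ng/L and -2.82, -1.73, -2.27, -2.51 and -1.99 in controls.

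The arrays kept much the same order across the called probes. At 50 ng/L, replicate 2 was the lowest array of its group in 20 of the 22 probes, against 33.2% of all probes, and replicates 3 and 1 were the highest in 11 and 9. Among controls, replicate 3 was the lowest in 17 of the 22, against 11.7% of all probes, and replicate 2 the highest in 15. These counts describe probes on the same arrays, which share their RNA.

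**Figure D2:**
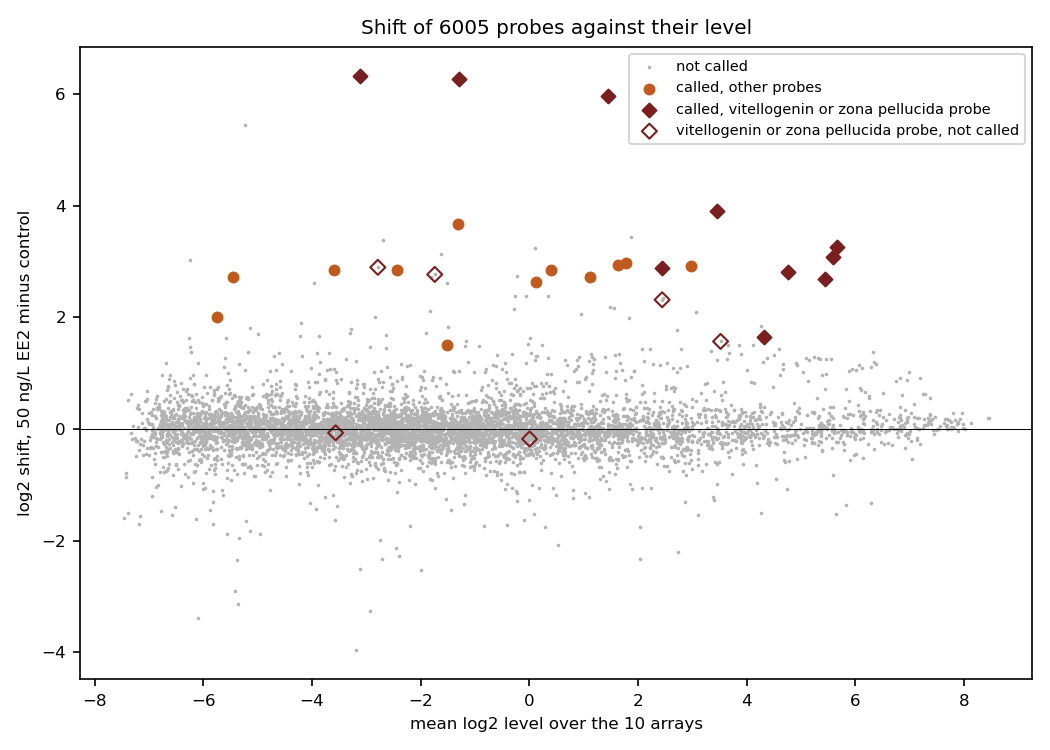
Log2 shift at 50 ng/L EE2 against control (y axis) by mean log2 level over the 10 arrays (x axis) for the 6005 probes tested. Filled symbols are the 22 called probes, dark diamonds where they name a vitellogenin or a zona pellucida protein, and open diamonds are such probes that were not called. All filled symbols lie above 0, between shifts of 1.5 and 6.33, and they span dim and bright probes.

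No probe passed in the downward direction. The lowest adjusted p there was 0.0749, for a probe without a name (-1.15 ± 0.23). Of named genes, beta-galactosidase, a lysosomal enzyme that removes galactose, came first. Its levels were -3.49, -3.0, -4.09, -3.04 and -4.03 at 50 ng/L and -1.23, -0.95, -2.38, -2.27 and 0.52 in controls, without overlap, for a shift of -2.27 ± 0.51 (adjusted p = 0.151). Next came 39S ribosomal protein L11 of mitochondria (-0.79 ± 0.20; adjusted p = 0.331), cytoplasmic isocitrate dehydrogenase, a source of NADPH (-0.76 ± 0.21; 0.467), and serine--pyruvate aminotransferase, which detoxifies glyoxylate in liver (-1.23 ± 0.34; 0.5). The last of the 6 were cyclic nucleotide gated channel beta 1 (-1.72 ± 0.51; 0.672) and cobra venom factor, a name from a snake homologue of complement C3 (-0.76 ± 0.23; 0.687). Of these 6, beta-galactosidase, L11, isocitrate dehydrogenase and cobra venom factor had groups that did not overlap. Among all 6005 probes 21 had every 50 ng/L array below every control array (0.35%). The 6 were picked for a small p, which itself favours groups without overlap, so this adds no support to their shifts. A shift of 2-fold or more was measured for 86 probes downward and 192 upward, of which 40 and 73 had an unadjusted limma p under 0.05.

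The concentrations were compared directly in a fit of all 15 arrays. Both share the control arrays, so their shifts are given side by side and the contrast of 250 with 50 ng/L is the test. Of the 22 probes called at 50 ng/L, 21 were also called at 250 ng/L, where 113 of the 6005 probes were higher (1.88%) and 38 lower (0.633%). The mean level of those 21 was in the order control, 50 and 250 ng/L. The step from control to 50 ng/L was fixed in advance, because the 22 were picked as higher there. The median shift of the 22 was 2.86 at 50 ng/L and 5.24 at 250 ng/L. In that contrast 17 of the 22 were called higher at 250 than at 50 ng/L (60 of all 6005 probes, 0.999%).

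The 5 that were not called between the concentrations include the brightest vitellogenin probes. Vitellogenin I on the contig AN_v_20346 averaged 4.04 ± 0.91 in controls, 7.30 ± 0.62 with 50 ng/L and 8.29 ± 0.63 with 250 ng/L (SD, n = 5 each), and the difference of 0.99 between the concentrations was not called (adjusted p = 0.583). The probes on AN_v_20344 and An_u_20270 differed by 0.93 (adjusted p = 0.703) and 1.70 (0.28), while that on An_u_20261 differed by 2.16 (0.00895). The brightest ZP4 probe differed by 1.49 (adjusted p = 0.101). For Vitellogenin II, the 2 probes with positive shifts were not called at 50 ng/L, and both were higher at 250 than at 50 ng/L by 4.59 and 5.09 (adjusted p = 0.00187 and 0.00223). The difference for Vitellogenin A2 was 2.5 (adjusted p = 0.0455), for WAP2 2.33 (0.0425), for serotransferrin I 2.46 (0.00677) and for ZP3 1.23 (0.0425). The unnamed probe with the smallest shift ran the other way, at -2.27 ± 0.43 in controls, -0.77 ± 0.24 with 50 ng/L and -1.82 ± 1.02 with 250 ng/L. The 250 ng/L arrays ran from -2.80 to -0.24 there, its shift at 250 ng/L was 0.45 (adjusted p = 0.691), and the contrast of the concentrations was not called (-1.05; adjusted p = 0.427). In this fit of all 15 arrays the probe was not called at 50 ng/L against control either (limma adjusted p = 0.205). Of the 10 fits without single arrays, 3 called it.

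**Figure D3:**
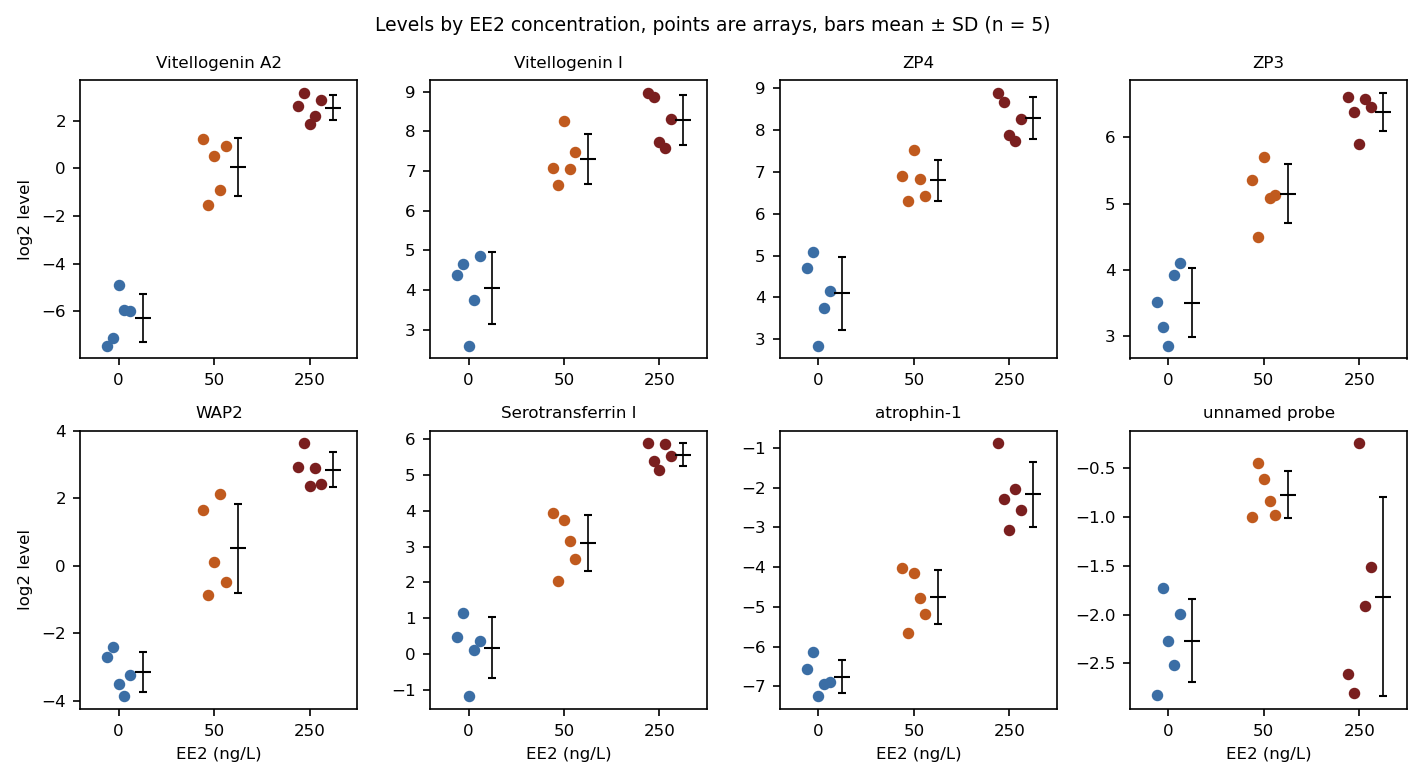
Log2 level by EE2 concentration in ng/L for 7 genes called at 50 ng/L, each on its brightest called probe, and for the unnamed called probe with the smallest shift. Points are arrays and bars are mean ± SD (n = 5). The mean at 50 ng/L lies between those at 0 and 250 ng/L for the 7 genes, and above both in the unnamed probe. The unnamed probe was called at 50 ng/L in the fit of 10 arrays and not in that of all 15.

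Beyond the called genes, 20 lists of liver pathways and 6 of cell type markers were described with 1 probe per gene. Over all 2888 genes tested, 12 were called on that probe. At so low a share most lists would hold 0 calls, so 0 calls does not set a list apart from other genes. No lipid synthesis gene was called. Of the 8 genes in the cholesterol synthesis list 7 were higher, against 1477 of all 2888 genes, with a median shift of 0.62. Those with the smallest p were 24-dehydrocholesterol reductase (0.84 ± 0.43), 14-alpha demethylase (0.87 ± 0.46), 3-hydroxy-3-methylglutaryl-coenzyme A reductase, the rate-limiting enzyme of the pathway (0.85 ± 0.47), and isopentenyl-diphosphate delta-isomerase 1 (0.66 ± 0.42). At 250 ng/L the same 8 genes had a median shift of 1.61, and 4 were called. For 14-alpha demethylase the 50 ng/L levels ran from -3.15 to -1.40 and the control levels from -3.98 to -1.56, so the groups overlapped. By array, the median of the cholesterol list relative to the control mean was 0.57, 0.60, 1.23, 1.08 and -0.02 at 50 ng/L. In controls it was -0.72, 1.26, -0.47, 0.20 and 0.09, so the groups overlapped for the list as well. The 5 fatty acid synthesis genes had a median of 0.40 and 0 calls. Delta-5/delta-6 fatty acid desaturase, which makes polyunsaturated fatty acids, was at 0.90 ± 0.36 (unadjusted p = 0.0283), NADP-dependent malic enzyme of mitochondria at 0.99 ± 0.58, fatty acid synthase at 0.40 ± 0.33 and acyl-CoA desaturase at 0.33 ± 0.78.

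Genes of fatty acid breakdown and lipid carriage were not called either. The 15 beta-oxidation genes had a median of -0.07, between -0.36 (3-ketoacyl-CoA thiolase and 3,2-trans-enoyl-CoA isomerase of mitochondria) and 0.26 (mitochondrial enoyl-CoA hydratase), with short-chain acyl-CoA dehydrogenase at -0.32. The 8 apolipoprotein genes had a median of 0.06, with apolipoprotein Eb at 0.56 ± 0.54, apolipoprotein B-100 at 0.27 ± 0.20, apolipoprotein A-I-1 at -0.16 ± 0.27 and the large subunit of microsomal triglyceride transfer protein at -0.21 ± 0.26. Of 5 fatty acid-binding proteins the retina type was at 3.13 ± 0.73 (adjusted p = 0.183), the heart type at 0.56 ± 0.29, the liver type at 0.09 ± 0.34, the intestinal type at -1.61 ± 0.77 and the untyped one at -1.73 ± 1.0. The intestinal type was well above background on only 2 of 5 arrays at 50 ng/L. With the normexp correction its shift was 0.006. For the retina type the levels were -0.36, 1.0, -1.40, -1.25 and 1.66 at 50 ng/L and -3.38, -1.27, -4.75, -3.78 and -2.81 in controls, where control replicate 2 alone reached into the range of the exposed arrays.

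Aspartic proteases of the cathepsin family did not pass at 50 ng/L. Cathepsin E1, cathepsin E and cathepsin D shifted by 2.17 ± 0.45, 2.18 ± 0.48 and 1.85 ± 0.45 (limma adjusted p = 0.102, 0.128 and 0.25), and at 250 ng/L by 3.73, 3.73 and 3.30, where all 3 were called. For cathepsin D the levels were 5.0, 5.21, 5.8, 5.15 and 4.77 at 50 ng/L, against 4.45, 2.36, 2.45, 2.92 and 4.5 in controls, so the groups did not overlap. Cathepsin E and cathepsin E1 had nearly the same values on every array. When all 15 arrays were fitted together, both were called at 50 ng/L against control at the same shifts (limma adjusted p = 0.0196 and 0.0159). Cathepsin D was not called there (limma adjusted p = 0.0528). The list of 18 cathepsins and lysosomal enzymes as a whole had 8 higher, 0 called and a median of -0.05, and beta-galactosidase is its lowest member.

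No gene of the secretory pathway lists was called. Of 29 genes of endoplasmic reticulum folding and translocation 21 were higher and the median was 0.14, against 0.72 at 250 ng/L. ERO1-like proteins alpha and beta, the oxidases that drive disulfide formation, were at 0.94 ± 0.36 (unadjusted p = 0.023) and 0.68 ± 0.30 (0.0459), with protein disulfide-isomerase A4 at 0.81 ± 0.55 and the 18 kDa subunit of the microsomal signal peptidase at 0.68 ± 0.39. The 26 vesicle transport genes had a median of 0.04, with 4 examples between -0.34 (vesicle transport through interaction with t-SNAREs homolog 1B) and 0.68 (Golgi-specific brefeldin A-resistance guanine nucleotide exchange factor 1). Syntaxin-6 was at 0.40 ± 0.26 and vesicle-associated membrane protein 8 at 0.38 ± 0.19.

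Plasma protein genes make up a large part of liver RNA. The 36 complement and coagulation genes had a median of 0.02 and 0 calls. Plasma kallikrein, a protease of the contact pathway, came closest, with levels of 3.37, 2.13, 3.52, 2.11 and 3.01 at 50 ng/L and 0.49, 1.05, -0.17, 1.34 and 1.53 in controls, a shift of 1.98 ± 0.39 (adjusted p = 0.0769) without overlap, and of 4.13 at 250 ng/L. Coagulation factors XI and VII were at 0.74 ± 0.31 and 0.46 ± 0.18, and the probe named complement component 3 at -1.74 ± 0.62 (unadjusted p = 0.0173). Another probe, named Complement C3, was at 0.52 ± 0.28. The 23 acute phase and protease inhibitor genes had a median of 0.09, with alpha-1-acid glycoprotein at -0.82 ± 0.42, plasma serine protease inhibitor at 0.49 ± 0.32, angiotensinogen at -0.34 ± 0.23 and contrapsin-like protease inhibitor 3 at -0.28 ± 0.18.

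Ribosomal, respiratory and proteasome genes run in every cell. The 88 cytosolic ribosomal protein genes had a median of -0.06 with 24 higher, the 85 oxidative phosphorylation genes -0.04 with 32 higher and the 34 proteasome genes -0.00458 with 16 higher, and none of them held a call. Among their members with the smallest p were proteasome subunit beta type 6 (-0.90 ± 0.29; unadjusted p = 0.0103), 60S ribosomal protein L10a (0.63 ± 0.31) and the mitochondrially encoded NADH-ubiquinone oxidoreductase chain 5 (0.68 ± 0.31). The 41 genes of cytochrome P450 and conjugation had a median of -0.16, with cytochrome P450 2P3 at -0.60 ± 0.28, epoxide hydrolase 1 at -0.42 ± 0.24, family 4 cytochrome P450 at 0.48 ± 0.30 and sulfotransferase 6B1 at 1.17 ± 0.71. The 31 heat shock and antioxidant genes had a median of -0.04, glutathione peroxidase 1, which reduces peroxides, having the smallest p (1.08 ± 0.44; unadjusted p = 0.0316). The 13 cell cycle genes had a median of 0.10, with DNA replication licensing factor MCM2 at 0.97 ± 0.67. In that list cyclin-dependent kinase inhibitor 1C was at 0.48 ± 0.27 against control, at 2.97 at 250 ng/L, and higher at 250 than at 50 ng/L by 2.49 (adjusted p = 0.00187). Both genes were dim at 50 ng/L and in controls. MCM2 was well above background on 3 of 5 arrays in each of these groups, and the kinase inhibitor on 4 of 5.

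**Figure D4:**
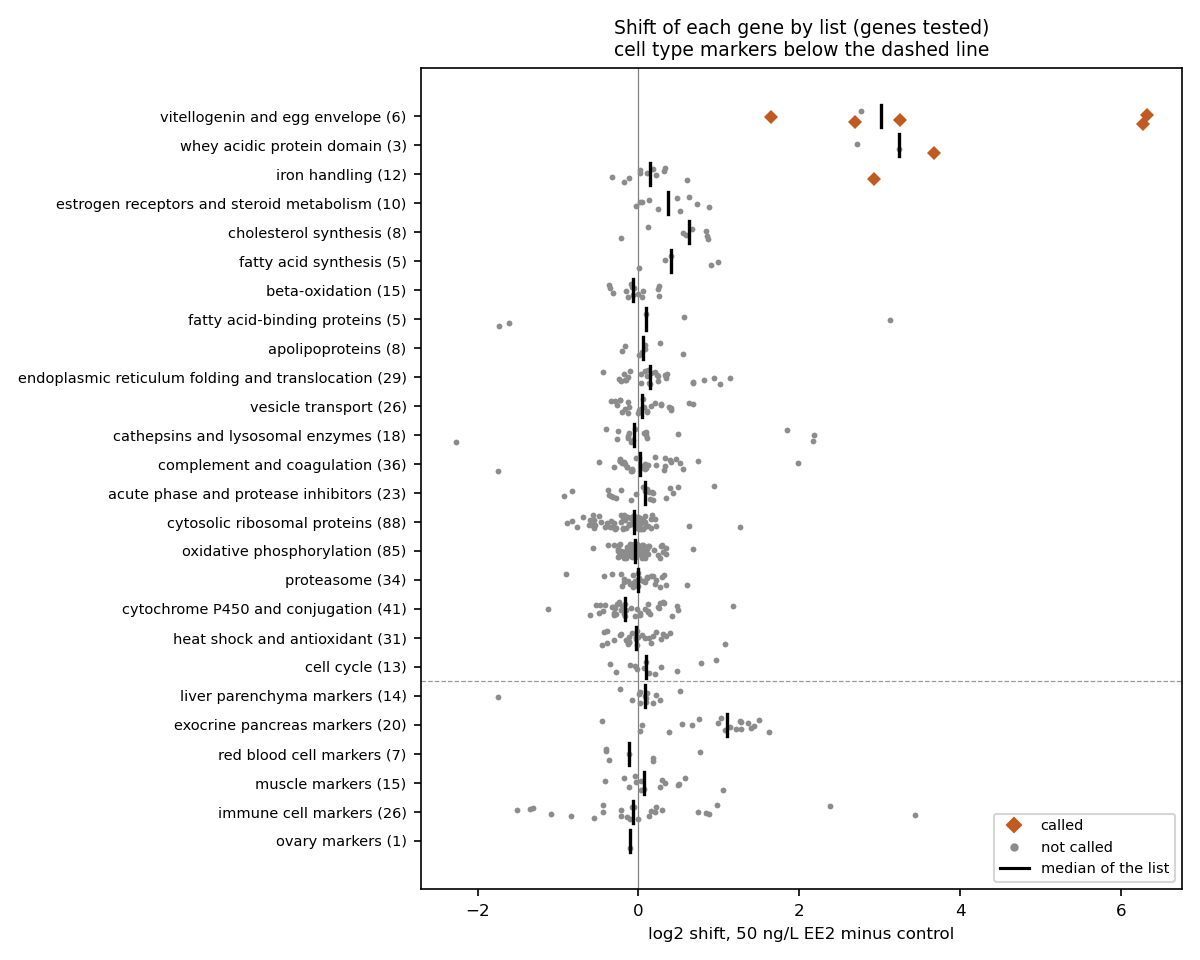
Log2 shift at 50 ng/L EE2 against control (x axis) of each gene of the 26 lists, 1 probe per gene, with the number of genes tested in parentheses. Orange diamonds are called genes, grey points are not called and black bars are medians. Calls fall in the first 3 lists. Of the lists without calls, the medians farthest to the right of 0 are those of exocrine pancreas markers (1.1) and cholesterol synthesis (0.62). Fatty acid synthesis (0.40) and estrogen receptors and steroid metabolism (0.36) follow.

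Markers of other cell types were followed because a piece of liver can carry more than hepatocytes, and in bulk RNA fewer cells of a type and less RNA per cell cannot be told apart. Exocrine pancreas markers, digestive enzymes such as elastases, trypsins and amylase, were well above background on all 10 arrays in 20 of 20 genes. So were 5370 of the 6005 probes tested, and this count alone does not identify a cell type. In many teleosts exocrine pancreas lies along the vessels of the liver. Of the 20 genes 19 were higher at 50 ng/L, against 1477 of all 2888 genes. The 20 had a median of 1.1 and 0 calls, and at 250 ng/L the median was 1.05. Their summed signal, in multiples of the array's 75th percentile, ran from 139 to 1023 at 50 ng/L and from 22.7 to 491 in controls. By array, the median of the markers relative to the control mean was -0.41, 2.37, -0.26, 1.38 and 2.57 at 50 ng/L and 0.55, -2.93, 0.84, 1.59 and -0.01 in controls. So 50 ng/L replicates 2 and 5 were high and control replicate 2 was low. Carboxypeptidase A2 (1.5 ± 0.88), elastase-2A (1.43 ± 0.88), pancreatic alpha-amylase (1.36 ± 0.83) and trypsinogen-like protein 3 (-0.46 ± 0.29) had the smallest p, and without control replicate 2 the shift of carboxypeptidase A2 was 0.78.

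The liver parenchyma list had a median of 0.08, with 11 of 14 higher. Its summed signals were 1304 to 2707 at 50 ng/L and 1556 to 2341 in controls. The members with the smallest p were complement component 3 (-1.74), Complement C3 (0.52 ± 0.28), apolipoprotein B-100 (0.27 ± 0.20) and fibrinogen beta chain (-0.23 ± 0.24), none of them called. Red blood cell markers had a median of -0.12, with 3 of 7 higher and sums of 122 to 229 at 50 ng/L and 108 to 233 in controls, the 4 hemoglobin chains with the smallest p running from -0.41 (hemoglobin alpha-D) to 0.76 (embryonic hemoglobin alpha). Muscle markers had a median of 0.06, 10 of 15 higher and sums of 0.767 to 2.43 at 50 ng/L and 0.698 to 1.36 in controls, with cardiac troponin T at 1.05 ± 0.60. Immune cell markers had a median of -0.07 with 11 of 26 higher and sums of 102 to 159 at 50 ng/L and 113 to 175 in controls. Small inducible cytokine A4 homolog, a chemokine, was at -1.51 ± 0.60 (unadjusted p = 0.0283) and an MHC class II (HLA class II DR alpha) chain at -1.09 ± 0.52. Lysozyme C, an antibacterial enzyme, shifted by 3.44 ± 1.65: its levels were 4.67, 4.09, 2.91, 2.55 and 3.71 at 50 ng/L and -4.19, -4.76, 2.94, 3.36 and 3.39 in controls, where the 2 controls of slide 1 were low and the 3 of slide 2 lay among the exposed arrays. Of 3 ovary markers luteinizing hormone receptor alone was tested, well above background on 1 of 5 arrays at 50 ng/L and 4 of 5 control arrays. Ovarian aromatase and follicle stimulating hormone receptor were too dim to test. None of the 5 non-hepatic lists held a called gene, and their part in the 22 calls was not tested. ZP proteins, which fish ovary as well as liver can make, were counted with the vitellogenins and not among the ovary markers. The ovary list thus rests on luteinizing hormone receptor alone, and a part of ovary in the ZP calls was not tested.

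The 2 slides each held arrays of both groups. Slide 1 held 2 exposed and 2 control arrays and slide 2 held 3 and 3. The shifts of the 22 called probes ran from 1.5 to 7.15 on slide 1 (median 2.20) and from 1.46 to 5.80 on slide 2 (median 3.41), and 18 of the 22 were larger on slide 2. The groups of these 22 do not overlap over both slides together, so a positive shift on each slide was fixed in advance. A fit that took slide as a block called 16 probes, 15 of them among the 22. Of the 22, those lost were ZP3, Vitellogenin I on AN_v_20344 and the probes of Gamma-gliadin, App1 protein, ftsK, atrophin-1 and the hypothetical protein, with adjusted p between 0.052 and 0.0706. The number of calls changed with single arrays. It was 3 without 50 ng/L replicate 1, 3, 4 or 5 or without control replicate 1 or 4, 12 without control replicate 3, 23 without control replicate 2, 26 without control replicate 5 and 31 without 50 ng/L replicate 2. Vitellogenin A2, the probe named Vitellogenin and Vitellogenin I on An_u_20261 were called in all 10 of these fits.

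**Figure D5:**
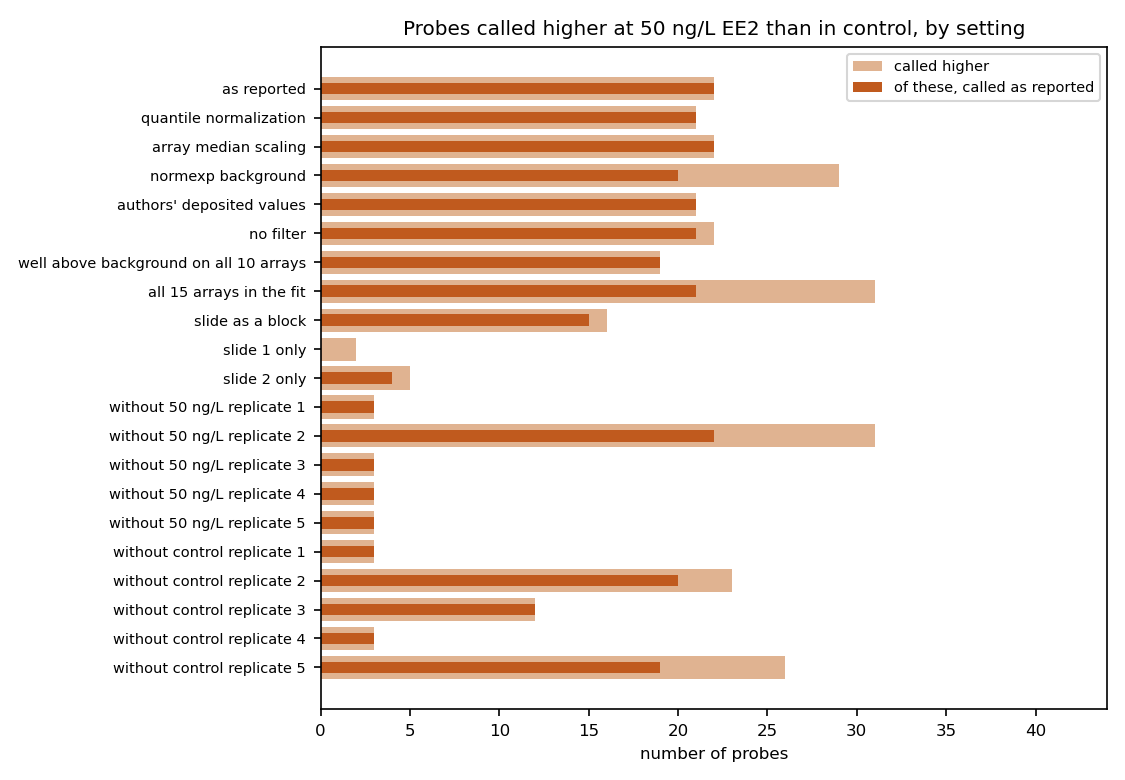
Number of probes called higher at 50 ng/L EE2 than in control (x axis, from 0) under each setting. Pale bars are all calls and dark bars those among the 22 reported. Other normalizations gave 21 to 22 calls, while leaving out single arrays gave 3 to 31.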

How the data were processed

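Per the labels, liver RNA was labelled with Cy3 and hybridised to 1-colour Agilent arrays. The deposited files hold intensity values from Agilent Feature Extraction 10.7.1.1, per the file headers; its processed signal is background-subtracted and not normalized between arrays. The authors deposited a table of log2 values as well, used only as an alternative; the sources used here do not say how they were made. Control spots and the 0 to 29 spots per array flagged as outliers were left out, and log2 processed signals of a probe's 2 spots were averaged, without a pseudocount. No spot was saturated. Groups were fitted with limma 3.58.1 in R 4.3.3 (lmFit and eBayes, 10 arrays, 8 residual degrees of freedom, Benjamini-Hochberg over 6005 probes, two-sided), and the code was tested on simulated data. The contrast of 250 with 50 ng/L used all 15 arrays and the same probes. SE is that of the fit (median 0.289), and 5 arrays per group limit the precision. The rule on names took every called gene, all vitellogenin, ZP and estrogen receptor probes, the 6 lower genes and up to 4 genes per list with the smallest p; in a list the brightest probe stood for its gene. Members and lists were chosen with earlier results of these data known. Gene names are those of the array's design; of 7152 probes, 4415 have one, 166 name a hypothetical protein and 2571 have none. Alternatives were another normalization, background, filter, array set and slide as a block. No sequence or genome was used here.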

Additional observations from a re-analysis of the deposited data

Results flagged for a closer look

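In groups of 5 arrays, an array was marked where its gap to the nearest other array exceeded 0.71 of the group's range (Dixon's 95% critical value). Chance marks about 1 in 20 groups, and 15 of 266 were marked here, 6 of them for control replicate 2. That array was highest for WAP2 on a probe that was not called (0.13, against -4.10 to -3.16 in the other controls), for WAP3 (-0.19), coagulation factor VII (4.99) and isopentenyl-diphosphate delta-isomerase 1 (3.27), and lowest for 40S ribosomal protein S19 (1.70, against 4.93 to 5.80) and serine--pyruvate aminotransferase (0.19). Across the 10 arrays the S19 probe ran much like the pancreas marker elastase-2A, which was lowest on control replicate 2 as well (1.26). Control replicate 4 was lowest for Golgi-specific brefeldin A-resistance guanine nucleotide exchange factor 1 (-1.14) and highest for syntaxin-6 (-4.64). At 50 ng/L, replicate 2 was lowest for App1 protein (-2.55, against -0.85 to -0.18 in the other exposed arrays) and protein disulfide-isomerase A4 (0.48). Replicate 5 of that group was lowest for alpha-1-acid glycoprotein (3.65) and for another uncalled WAP2 probe (-4.71). Replicate 1 was lowest for cobra venom factor (1.95) and estrogen receptor alpha (1.19, against 2.46 to 2.95), and replicate 3 highest for serine--pyruvate aminotransferase (0.86). The App1 probe is the 1 called probe among these, and without 50 ng/L replicate 2 its shift was 3.22.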

How the results depend on the processing

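No paired analysis was possible because the labels give no replicate numbers. Against 22 higher calls as reported, refits without 1 array at a time made 3 to 31, with 0 to 2 lower calls, and a single slide gave 2 (slide 1, with 4 lower, and 0 of the 22 among them) or 5 (slide 2, 4 of them among the 22). Quantile normalization, median scaling, the authors' deposited values, no filter, a stricter filter, all 15 arrays and slide as a block gave 16 to 31 higher and 0 lower calls; normexp gave 29 higher and 1 lower, with the median of all probes at 0.18. The number of the 22 called higher at 250 than at 50 ng/L, 17 as reported, was 9 to 15 without single exposed arrays and 13 to 17 under the other settings, all chosen after seeing the data. Without single arrays, the brightness difference (50 ng/L minus control) ran from -1.26 to -0.58 log2 units, and that in probes well above background from -2.98 to -1.15 percentage points. The causes of these changes were not tested. Dim probes, among them Vitellogenin A2 and atrophin-1 in controls, lie near background, which limits their folds.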
